A study of Mus musculus with 17 samples.

Results

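Sterol and fatty acid synthesis genes were examined in the dorsal hippocampus of Acss2 knockout mice injected with tau. The group holds 35 genes, taken by symbol from the 24498 gene rows of the count table because they belong to cholesterol and fatty acid synthesis under the control of sterol regulatory element-binding proteins (SREBPs), that is, by function rather than by a measured value. All 35 symbols were found, and all 35 passed the filter on low counts in every fit. By role they comprised 5 SREBP regulators (Srebf1, Srebf2, Scap, Insig1, Insig2), 7 enzymes of the mevalonate arm (Acat2, Hmgcs1, Mvk, Pmvk, Mvd, Idi1, Fdps), 11 enzymes from squalene to cholesterol (Fdft1, Sqle, Lss, Cyp51, Tm7sf2, Msmo1, Nsdhl, Hsd17b7, Ebp, Sc5d, Dhcr7), 10 genes of fatty acid synthesis (Acaca, Acacb, Fasn, Me1, Elovl5, Elovl6, Scd1, Scd2, Fads1, Fads2) and 2 genes of lipid transport and activation (Stard4, Acsl3).

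Cytosolic acetyl-CoA is the carbon source of both pathways. Acetyl-CoA synthetase 2, the product of Acss2, makes it from acetate, and ATP citrate lyase makes it from citrate. When sterols are scarce, SCAP escorts SREBPs out of the endoplasmic reticulum, where INSIG proteins otherwise hold them, and the released transcription factor domain activates these synthesis genes. The adult brain makes its own cholesterol, since that of the blood does not cross the blood-brain barrier, and astrocytes and myelinating oligodendrocytes are known as major sites of this synthesis.

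RNA sequencing of poly(A) RNA had been done on slices of dorsal hippocampus (CA1, CA2, CA3 and dentate gyrus), and the question asked was how loss of ACSS2 interacts with pathological tau. Mice were either wild type (WT) or constitutive Acss2 knockouts (KO), both obtained by mating homozygous F1 animals born to heterozygous breeders, and at 6 months of age received either tau purified from human Alzheimer's disease cortex (Tau) or phosphate-buffered saline (PBS) by injection into the brain, with outcomes studied 6 months after the injection. The 17 libraries formed 6 groups, with 3 libraries for each combination of genotype and injection in males, 3 for Tau-injected KO females and 2 for Tau-injected WT females. There was no PBS group of females, so Tau could be compared with PBS only in males. The number in its label names each library. Levels are given as CPM, in which the counts of each library are scaled to the same total, and differences as log2 fold changes with their standard errors (SE) from edgeR's quasi-likelihood fit over all genes, with Benjamini-Hochberg adjustment and a false discovery rate (FDR) of 0.05. Whether groups overlap was read from CPM, whereas the fold changes also use a scaling factor per library (TMM).

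Library totals ran from 14183131 to 22463635 counts. Acss2 itself lay between 44.0 and 54.6 CPM in the 8 WT libraries and between 3.07 and 8.81 CPM in the 9 KO libraries, so every library matched its genotype label. Male KO Tau 711 stood apart from the other 11 male libraries, with 8 of 9 astrocyte markers at their highest there (summed level 7067 CPM against 3604 to 4517 CPM), 6 of 12 oligodendrocyte markers (8094 CPM against 3294 to 6419 CPM), 6 of 7 microglia markers and 5 of 6 endothelial markers. Male KO PBS 752 held the highest level of all 7 striatum markers (649 CPM against 153 to 215 CPM) and the lowest of all 7 microglia markers, and male KO Tau 713 the highest of all 8 choroid plexus markers (4025 CPM against 24.1 to 577 CPM). Male KO PBS 751 was lowest for all 6 endothelial markers (126 CPM against 173 to 276 CPM) and highest for 6 of 7 dentate granule cell markers (690 CPM against 233 to 543 CPM). Among females, the summed oligodendrocyte markers reached 12697 CPM in WT 331, against 6488 CPM in WT 341 and 5180 to 7509 CPM in KO. No marker list had a gene at 0 throughout. In bulk tissue, fewer cells of a type and less RNA per cell cannot be told apart, and the main results that rest on 711 or 752 are given with and without them.

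The promoters of 4 members are shown because the enzymes of sterol synthesis varied together between libraries and because Cyp51, Sc5d and Fasn carry the comparisons described here. They are the 250 bases upstream of the RefSeq gene start (GRCm38.p6), read 5′ to 3′ on the gene's strand. Capitals mark matches, on either strand and wholly inside the printed window, to a sterol regulatory element (SRE), searched as TCACNCCAC, to an E-box, searched as CACGTG, to a box with the letters CCAAT, or to a GC box, searched as GGGCGG. No match of one kind overlapped a match of another in the printed windows. Hmgcs1 (chr13:119690101-119690350, plus strand) held the only match to this SRE pattern among the 28 members with a RefSeq promoter window. Sites that differ from the searched letters are not marked, so a window without a match may still hold an SRE. The other windows are Cyp51 (chr5:4104698-4104947, minus strand), Sc5d (chr9:42264301-42264550, minus strand) and Fasn (chr11:120824548-120824797, minus strand).
Hmgcs1: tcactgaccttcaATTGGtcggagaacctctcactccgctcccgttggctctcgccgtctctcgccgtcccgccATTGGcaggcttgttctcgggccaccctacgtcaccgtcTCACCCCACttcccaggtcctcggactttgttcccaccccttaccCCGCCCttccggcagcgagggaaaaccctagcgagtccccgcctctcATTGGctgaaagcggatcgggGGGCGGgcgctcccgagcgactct
Cyp51: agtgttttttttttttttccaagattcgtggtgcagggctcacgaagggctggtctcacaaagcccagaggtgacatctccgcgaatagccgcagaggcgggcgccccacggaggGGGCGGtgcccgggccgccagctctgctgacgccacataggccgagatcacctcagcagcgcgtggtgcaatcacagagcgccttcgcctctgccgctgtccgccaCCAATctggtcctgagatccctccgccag
Sc5d: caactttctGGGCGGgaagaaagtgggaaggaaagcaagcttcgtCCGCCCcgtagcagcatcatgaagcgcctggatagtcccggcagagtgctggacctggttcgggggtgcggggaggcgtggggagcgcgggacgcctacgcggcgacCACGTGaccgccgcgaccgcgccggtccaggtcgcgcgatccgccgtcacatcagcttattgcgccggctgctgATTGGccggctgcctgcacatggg
Fasn: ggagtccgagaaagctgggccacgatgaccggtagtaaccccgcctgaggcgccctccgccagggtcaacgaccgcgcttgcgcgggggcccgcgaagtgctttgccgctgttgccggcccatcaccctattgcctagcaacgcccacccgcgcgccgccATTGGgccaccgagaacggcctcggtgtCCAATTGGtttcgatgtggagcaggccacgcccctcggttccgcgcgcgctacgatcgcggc

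RefSeq windows of 300 bases, 250 before to 50 after a start, were found for 28 of the 35 members. At least 1 CCAAT box stood in a window of 23 of these 28 members (82.1%), against 41.1% of the 27025 genes with a window. For the GC box the count was 22 of 28 (78.6%) against 38.2%, and for the E-box 6 of 28 (21.4%) against 8.09%. The E-box genes were Dhcr7, Elovl5, Hsd17b7, Insig1, Sc5d and Scap. The SRE pattern searched stood in a window of 1 of 28 members (3.57%) against 1.44% of all genes. Such a match is a description of letters in a window, and genes with several starts have several windows.

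In male WT PBS hippocampus the members spanned a wide range of level. Levels between genes were compared as CPM per kilobase of exon (GENCODE, GRCm38). Scd2, a stearoyl-CoA desaturase abundant in brain, was the highest at 249.6 ± 5.07 CPM per kb (SD, n = 3). Hmgcs1, which condenses acetyl-CoA with acetoacetyl-CoA, followed at 71.6 ± 7.19 CPM per kb, and Fads1, the delta-5 desaturase, at 58.7 ± 1.21 CPM per kb. Cyp51, which demethylates lanosterol, stood twelfth at 19.3 ± 0.744 CPM per kb. The lowest were Idi1, the isopentenyl diphosphate isomerase, at 1.66 ± 0.128 CPM per kb and Acacb, the mitochondrial acetyl-CoA carboxylase, at 0.717 ± 0.0861 CPM per kb. Of the 34 neighbouring pairs in this order, 17 had ranges that did not overlap over the 3 libraries, so for the other 17 pairs the order was within the spread.

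**Figure D1:**
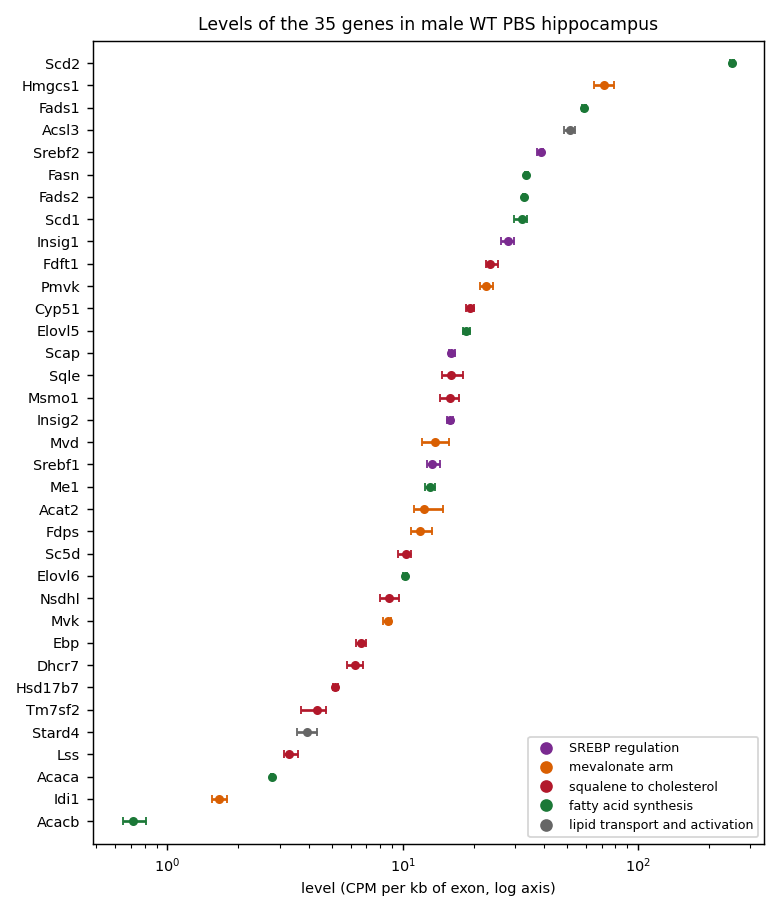
Level of each of the 35 genes in male WT PBS dorsal hippocampus, in CPM per kb of exon on a log axis, coloured by role; points are means of 3 libraries and bars their lowest and highest values. Scd2 lies far above the rest, and Idi1 and Acacb lie lowest.

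Loss of Acss2 was compared with WT in 3 strata that share no library, namely PBS-injected males, Tau-injected males and Tau-injected females. None of the 35 members passed the FDR in any of them, the smallest adjusted p of a member being 0.999 in PBS-injected males, 0.927 in Tau-injected males and 0.997 in females with edgeR. In PBS-injected males 0 of 35 passed, while 0.00662% of 15098 genes tested did (Acss2 alone), and 4 of 35 members had an unadjusted p under 0.05 against 4.42% of all genes. In Tau-injected males 0 of 35 passed against 0.00662%, and 5 of 35 had an unadjusted p under 0.05 against 4.71%. In Tau-injected females 0 of 35 passed against 0.00649% of 15419 genes, and 4 of 35 had an unadjusted p under 0.05 against 2.89%. KO and WT libraries did not overlap for 7 of 35 members in PBS-injected males (2 higher and 5 lower in KO) against 11.7% of genes in either direction. The corresponding count was 9 in Tau-injected males (1 higher, 8 lower) against 12.6%, and 14 in Tau-injected females (1 higher, 13 lower) against 16.0%. For the lower direction alone in females, 13 of 35 members compared with 10.3% of genes. Each library was also left out in turn, and members with an unadjusted p under 0.05 were counted. In PBS-injected males they ran from 1 (without 753 or 791, 6.19% of genes without 753) to 6 (without 752, 5.76%). In Tau-injected males they ran from 0 (without 771, 2.38%) to 8 (without 752 or 712, 7.43% without 752). In females they ran from 0 (without 314, 1.25%) to 9 (without 711, 5.67%).

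The 18 enzymes of sterol synthesis leaned below WT and the 10 fatty acid genes listed did not. Among the 18 enzymes of the mevalonate arm and of the steps from squalene to cholesterol, 16 had a log2 fold change below 0 in PBS-injected males (median -0.11), 14 in Tau-injected males (median -0.15) and 18 in Tau-injected females (median -0.31). Over all genes tested the medians were 0.0095, 0.0072 and -0.010, and 47.5%, 48.2% and 52.0% of genes lay below 0. Of the 10 fatty acid genes, 4, 3 and 5 lay below 0 in the same order (medians 0.046, 0.052 and -0.032). Among 12 other synthesis enzymes of both pathways, outside the 35, 7, 7 and 12 lay below 0 (medians -0.0030, -0.063 and -0.23). The contrast between the pathways thus holds for the listed genes only. The sterol enzymes also varied together between libraries of the same group (median r of 0.45 over their pairs). Counts of enzymes below 0 are therefore not counts of independent observations. The lean in Tau-injected males rested on library 711, without which 9 of the 18 sterol enzymes lay below 0 and their median was 0.0075, and 7 of the 10 fatty acid genes lay below 0 with a median of -0.075. In PBS-injected males 17 of the 18 sterol enzymes lay below 0 without 752 (median -0.20), 13 without 751 (median -0.096) and 12 without 753 (median -0.13), and the median without 793 was -0.070. Without 712 the sterol median in Tau-injected males was -0.32. In females 14 of the 18 lay below 0 without WT 341 (median -0.14), which leaves 1 WT library. The 6 oligodendrocyte precursor markers summed to 150.5 to 164 CPM in the female WT libraries and 125 to 136 CPM in the female KO libraries, without overlap, and their part in the female values was not tested.

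**Figure D2:**
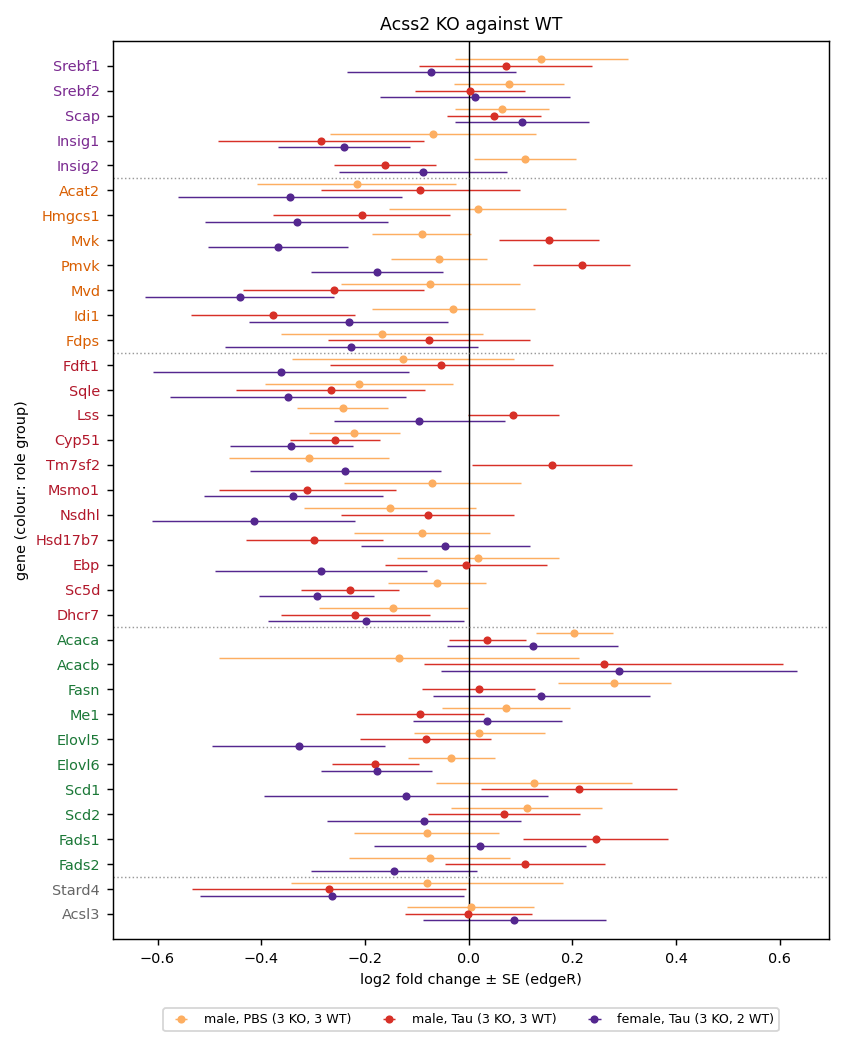
Log2 fold change of KO against WT with its SE from edgeR for each of the 35 genes, in PBS-injected males (3 against 3 libraries), Tau-injected males (3 against 3) and Tau-injected females (3 against 2); gene names are coloured by role and the line at 0 marks no difference. All 18 sterol enzymes lie left of 0 in females, and Cyp51 lies left of 0 in every stratum.

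Cyp51, the lanosterol 14-alpha-demethylase and the first step after the sterol ring is closed, was the member with the most regular difference. Its gene lies at chr5:4081145-4104746 on the minus strand of GRCm38. In WT males its level was 85.3, 81.7 and 88.2 CPM after PBS and 89.4, 83.7 and 79.1 CPM after Tau. Among KO males the values were 70.0, 74.5 and 66.5 CPM after PBS and 62.8, 76.2 and 68.6 CPM after Tau. In females they were 100.0 and 106 CPM in WT and 68.0, 81.9 and 86.5 CPM in KO. Every KO library lay below every WT library of its stratum, and 18 of 15594 genes (0.115%), 17 of them lower in KO, shared this pattern of no overlap in the same direction in all 3 strata. The log2 fold change was -0.22 ± 0.0873 (SE) in PBS-injected males, -0.26 ± 0.0873 (SE) in Tau-injected males and -0.34 ± 0.119 (SE) in Tau-injected females. None of these passed the FDR. Without library 711 the fold in Tau-injected males was -0.20 ± 0.0851 (SE).

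Because Cyp51 was seen to separate in all 3 strata, KO was also set against WT in a single edgeR fit of all 17 libraries, averaged with equal weight over the strata. This contrast was chosen after the values were seen and uses the same libraries, so it is a description of them. Cyp51 had a log2 fold change of -0.27 ± 0.0568 (SE) (adjusted p = 0.716). DESeq2 gave an adjusted p of 0.089 for it, and over the 21 alternatives its fold lay between -0.30 and -0.25 with adjusted p from 0.089 to 1.00. Of the 35 members 0 passed the FDR, against 0.00641% of 15594 genes, and 8 had an unadjusted p under 0.05, against 4.18% of genes. All 8 were lower in KO (Cyp51, Sc5d, Sqle, Elovl6, Msmo1, Mvd, Idi1, Nsdhl), against 1.87% of genes in that direction. Without library 711, 6 members were under 0.05 (Idi1, Sqle, Cyp51, Sc5d, Elovl5, Elovl6) against 6.52% of genes, and without 752 there were 12 against 3.55%. With each library left out the count ran from 4 (without 751, 793, 341 or 771, 6.72% of genes without 751) to 13 (without 712 or 331, 5.85% without 712). All 18 sterol enzymes had folds below 0 in this average (median -0.18), and 17 did so without 711 (median -0.13).

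Sc5d, the lathosterol desaturase near the end of the pathway, had the next smallest p in that average, with a log2 fold change of -0.19 ± 0.0587 (SE). Its levels in WT males were 52.0, 46.6 and 52.7 CPM after PBS and 55.3, 50.8 and 47.3 CPM after Tau. KO values of Sc5d in males were 47.2, 50.4 and 42.0 CPM after PBS and 44.5, 43.7 and 40.7 CPM after Tau. Females had 67.0 and 75.4 CPM in WT and 54.4, 52.0 and 62.4 CPM in KO. The groups overlapped in PBS-injected males and did not overlap under Tau in either sex, where the log2 fold changes were -0.23 ± 0.0948 (SE) in males and -0.29 ± 0.111 (SE) in females (-0.17 without WT 341). Library 711 held the highest Sc5d value of the Tau-injected KO males.

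Sqle, the squalene epoxidase that controls flux late in the pathway, had 85.4, 81.2 and 99.9 CPM in WT PBS males and 85.1, 80.2 and 86.3 CPM in WT Tau males. Its KO males gave 67.1, 78.0 and 76.9 CPM after PBS and 45.9, 88.4 and 71.8 CPM after Tau. Sqle in females was at 61.4 and 88.2 CPM in WT and 56.8, 55.2 and 58.9 CPM in KO. In CPM, KO lay wholly below WT in PBS-injected males and in females. With TMM factors applied, female KO 314 (log2 CPM 5.85) lay above female WT 331 (5.83). The Tau-injected KO males ran from the lowest value of all, in 711, to above the WT range. Dhcr7, the last reductase of the pathway, was at 35.8, 33.7 and 39.4 CPM in WT PBS males and 30.9, 32.3 and 33.8 CPM in WT Tau males. KO values for Dhcr7 were 29.7, 30.3 and 34.9 CPM after PBS and 20.2, 31.9 and 30.0 CPM after Tau in males. Dhcr7 in females stood at 22.8 and 29.9 CPM in WT and 20.9, 23.9 and 22 CPM in KO. The 3 Tau-injected KO males lay below the WT PBS males, with 711 far below the other 2.

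Lss, which closes the sterol ring, and Tm7sf2, a sterol reductase, had folds for genotype of opposite sign after PBS and after Tau. Lss in WT males was 38.9, 34.1 and 33.6 CPM after PBS and 29.1, 29.8 and 30.9 CPM after Tau. In KO males Lss was 27.1, 31.7 and 28.0 CPM after PBS and 31.9, 32.0 and 30.0 CPM after Tau. Female Lss was 29.9 and 38.0 CPM in WT and 36.2, 29.0 and 26.9 CPM in KO. The WT PBS males were above all 9 other male libraries for Lss. Its fold for KO against WT was -0.24 ± 0.0876 (SE) after PBS and 0.09 ± 0.0877 (SE) after Tau. Tm7sf2 gave 20.3, 16.2 and 20.8 CPM in WT PBS, 15.1, 17 and 17.7 CPM in WT Tau, 11.9, 17.3 and 15.4 CPM in KO PBS and 16, 21.4 and 17.5 CPM in KO Tau males. In females Tm7sf2 was 19.3 and 14.7 CPM in WT and 14.2, 10.8 and 16.7 CPM in KO. Its folds were -0.31 ± 0.154 (SE) after PBS (-0.18 without 751) and 0.16 ± 0.154 (SE) after Tau (0.04 without 712) in males, and its groups overlapped in each of these comparisons of genotype.

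In the mevalonate arm, Idi1 was counted at low level with genotype groups that overlapped in all 3 strata. Its WT males had 6.30, 5.68 and 5.43 CPM after PBS and 7.81, 7.07 and 5.86 CPM after Tau. The KO males had 5.17, 6.17 and 5.13 CPM after PBS and 6.06, 4.95 and 4.70 CPM after Tau. Idi1 in females was 9.09 and 10.6 CPM in WT and 6.70, 8.34 and 9.39 CPM in KO. The fold under Tau was -0.38 ± 0.158 (SE) in males, and there 1 KO library, 711, overlapped the WT range. Mvd, the mevalonate diphosphate decarboxylase, was 24.7, 22.4 and 29.3 CPM in WT PBS and 20.0, 21.8 and 22 CPM in WT Tau males. KO males had Mvd at 18.7, 30.0 and 21.3 CPM after PBS and 14.6, 19.9 and 17.8 CPM after Tau. For females Mvd was 14.2 and 21.0 CPM in WT and 12.1, 11.9 and 13.8 CPM in KO. The highest and lowest of the male values were both KO libraries, 752 after PBS and 711 after Tau. In females the KO range lay wholly below WT, with a fold of -0.44 ± 0.182 (SE) that became -0.09 without WT 341 and -0.72 without WT 331.

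Hmgcs1, which commits acetyl-CoA to the pathway, had 324, 298 and 364 CPM in WT PBS and 349, 305 and 311 CPM in WT Tau males. In KO males Hmgcs1 was 277, 402 and 283 CPM after PBS and 220.3, 336 and 268 CPM after Tau. Its female values were 300.4 and 378 CPM in WT and 267, 257 and 258 CPM in KO. The male groups overlapped, with 752 the highest and 711 the lowest of the 12, and the female KO libraries all lay below the WT ones. Mvk, mevalonate kinase, was 23.5, 22 and 23.8 CPM in WT PBS and 19.7, 18.0 and 20.0 CPM in WT Tau males. Mvk in KO males was 18.8, 20.8 and 23.1 CPM after PBS and 19.2, 22 and 22.1 CPM after Tau. Mvk in females was 20.2 and 25.4 CPM in WT and 16.2, 16.5 and 18.7 CPM in KO. In females its fold was -0.37 ± 0.135 (SE) (-0.16 without WT 341 and -0.55 without WT 331), while in Tau-injected males the fold was 0.15 ± 0.0964 (SE). Pmvk, phosphomevalonate kinase, was 36.6, 38.3 and 41.5 CPM in WT PBS, 37.2, 37.7 and 36.6 CPM in WT Tau, 32.4, 35.7 and 39.9 CPM in KO PBS and 39.9, 46.7 and 41.1 CPM in KO Tau males. Female Pmvk was 53.1 and 41.8 CPM in WT and 34.1, 42.3 and 45.2 CPM in KO. It was the single member whose Tau-injected KO males all lay above WT, with a fold of 0.22 ± 0.0928 (SE).

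**Figure D3:**
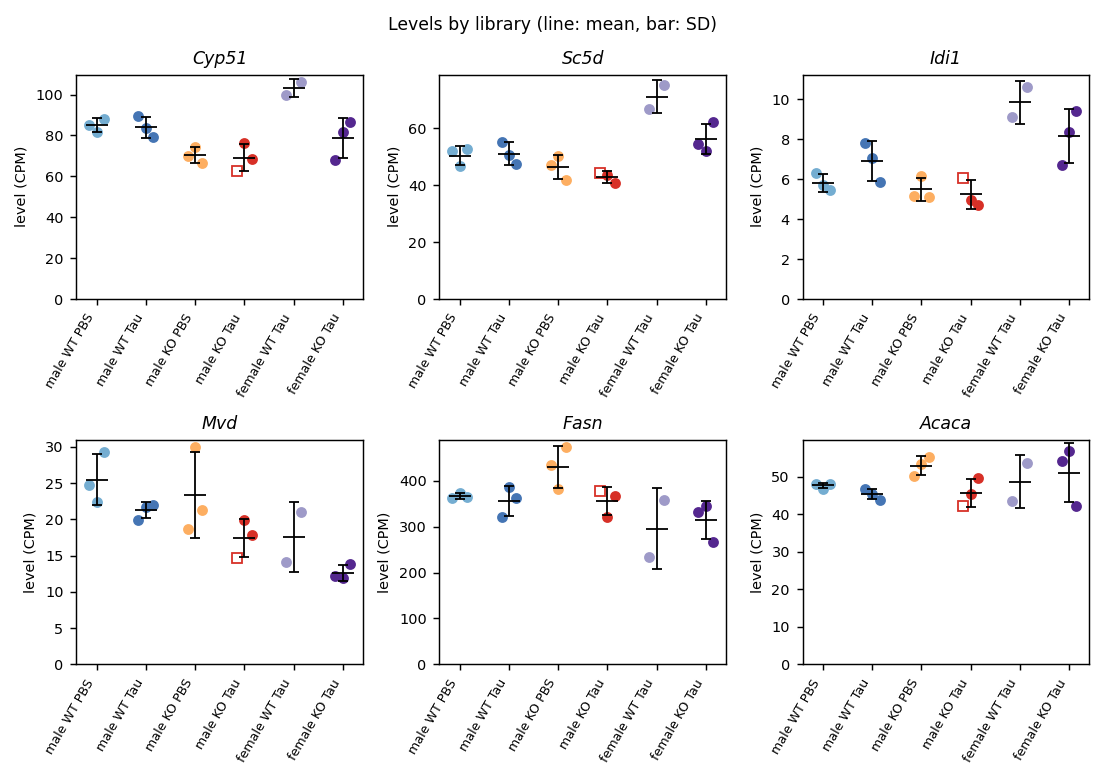
Level in CPM of 6 genes in each of the 17 libraries, by group, with the group mean (line) and SD (bar); the open square is male KO Tau 711, and each axis starts at 0. For Cyp51 the KO libraries lie below the WT libraries of the same sex and treatment in all 3 pairs of groups.

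The regulators of the pathway showed no member with an unadjusted p under 0.05 for KO against WT in any stratum. Srebf2, the transcription factor that drives sterol genes, was 268, 282 and 282 CPM in WT PBS and 247, 249 and 265 CPM in WT Tau males. KO males had Srebf2 at 253, 298 and 295 CPM after PBS and 212, 261 and 278 CPM after Tau. Srebf2 in females was 169 and 232 CPM in WT and 216, 197 and 173 CPM in KO. Its genotype groups overlapped, with folds of 0.08 ± 0.106 (SE), 0.00 ± 0.106 (SE) and 0.01 ± 0.183 (SE) in the order of strata used above. Srebf1, the factor that drives fatty acid genes, was 71.2, 81.5 and 72.2 CPM in WT PBS and 77.2, 95.4 and 80.4 CPM in WT Tau males. Srebf1 in KO males was 67.3, 67.4 and 105 CPM after PBS and 97.7, 75.3 and 88.5 CPM after Tau. In females Srebf1 was 94.0 and 93.8 CPM in WT and 80.6, 100.3 and 77.3 CPM in KO. The 3 KO PBS males of this gene spanned the whole range of the 12 male libraries.

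Insig1, whose protein retains SREBPs and whose own gene is a target of them, was 91.5, 80.8 and 88.7 CPM in WT PBS and 84.7, 82.6 and 79.4 CPM in WT Tau males. Insig1 in KO males was 61.2, 113 and 65.7 CPM after PBS and 54.1, 74.8 and 70.5 CPM after Tau. Female Insig1 was 87.1 and 89.9 CPM in WT and 70.2, 70.9 and 76.3 CPM in KO. Under Tau the KO libraries lay wholly below WT in both sexes, with folds of -0.28 ± 0.199 (SE) in males (-0.16 without 711) and -0.24 ± 0.127 (SE) in females. After PBS, 752 was the highest and the other 2 KO libraries were below WT. Without 752 the fold in PBS-injected males had an unadjusted p under 0.05. Scap, the escort protein, was 118, 117 and 124 CPM in WT PBS, 110.4, 117 and 116 CPM in WT Tau, 120.4, 106 and 135 CPM in KO PBS and 111, 114 and 124 CPM in KO Tau males. Scap in females was 81.6 and 95.7 CPM in WT and 96.3, 94.3 and 84.9 CPM in KO. Insig2, the second retention protein, lay between 48.6 and 64.6 CPM in males.

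In PBS-injected males Fasn and Acaca lay wholly above WT in KO and Fads1 wholly below it, none passing the FDR. Fasn, the fatty acid synthase, had 362, 374 and 365 CPM in WT PBS and 321, 386 and 363 CPM in WT Tau males. Fasn in KO males was 436, 382 and 473 CPM after PBS and 379, 321 and 368 CPM after Tau. In females Fasn was 233 and 358 CPM in WT and 332, 345 and 266 CPM in KO. KO PBS males lay wholly above WT PBS males, by a fold of 0.28 ± 0.109 (SE). Acaca, the cytosolic acetyl-CoA carboxylase that supplies malonyl-CoA to Fasn, was 48.2, 46.9 and 48.2 CPM in WT PBS and 46.8, 45.5 and 43.9 CPM in WT Tau males. Acaca in KO males was 50.2, 53.5 and 55.4 CPM after PBS and 42.3, 45.4 and 49.7 CPM after Tau. Females had Acaca at 43.7 and 53.8 CPM in WT and 54.4, 56.9 and 42.2 CPM in KO. Again KO PBS males lay wholly above WT PBS males (0.20 ± 0.0742 (SE)). For Acaca and Fasn the KO and WT groups overlapped under Tau in both sexes.

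Of the elongases, Elovl6, which extends palmitate, was 66.9, 65.4 and 64.3 CPM in WT PBS and 69.1, 68.2 and 61.9 CPM in WT Tau males. Elovl6 in KO males was 64.0, 55.6 and 65.5 CPM after PBS and 53.4, 58.3 and 61.3 CPM after Tau. Its females had 65.4 and 68.7 CPM in WT and 52.2, 54.5 and 65.6 CPM in KO. The KO range lay below WT in Tau-injected males, with a fold of -0.18 ± 0.0839 (SE). Scd1, a stearoyl-CoA desaturase, was 165, 159 and 146 CPM in WT PBS and 170.1, 176 and 164 CPM in WT Tau males. Scd1 in KO males was 136, 191 and 168 CPM after PBS and 265, 156 and 160.0 CPM after Tau. For Scd1 the females had 471 and 262 CPM in WT and 246, 333 and 398 CPM in KO. Its highest male value was 711, and all 5 female libraries were above the other 11 male ones.

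Scd2 was 1358, 1394 and 1339 CPM in WT PBS and 1546, 1594 and 1411 CPM in WT Tau males. Scd2 in KO males was 1334, 1462 and 1467 CPM after PBS and 1984, 1353 and 1353 CPM after Tau. Female Scd2 was 2225 and 1984 CPM in WT and 1812, 1948 and 1981 CPM in KO. The genotype groups overlapped in PBS-injected males, and in Tau-injected males 1 KO library lay above and 2 below the WT range. Fads1 was 289, 278 and 279.6 CPM in WT PBS, 259, 269 and 270.0 CPM in WT Tau, 249, 259 and 264 CPM in KO PBS and 397, 256 and 277 CPM in KO Tau males. Fads1 in females was 505 and 344 CPM in WT and 393, 371 and 484 CPM in KO. The delta-6 desaturase Fads2 was 109, 107 and 109 CPM in WT PBS, 103, 99.9 and 111 CPM in WT Tau, 99.3, 77.4 and 120.4 CPM in KO PBS and 134, 97.5 and 101 CPM in KO Tau males. Fads2 in females was 164 and 129 CPM in WT and 120.4, 115 and 149 CPM in KO. For both desaturases 711 was the highest of the 12 male libraries.

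The remaining members are given by range. Over the 12 male libraries Acat2 lay between 19.2 and 37.8 CPM, Fdps between 26.7 and 56.0 CPM, Fdft1 between 49.8 and 109 CPM, Msmo1 between 60.9 and 114 CPM and Nsdhl between 15.3 and 27.6 CPM. Hsd17b7 lay between 18.9 and 28.6 CPM, Ebp between 10.9 and 17.8 CPM and Stard4, a cholesterol carrier, between 10.2 and 27.7 CPM. The lowest of these values was in 711 for all 8 genes. Acacb lay between 3.54 and 10.9 CPM, Me1, the cytosolic malic enzyme, between 43.8 and 58.1 CPM, Elovl5 between 57.0 and 83.5 CPM and Acsl3, an acyl-CoA synthetase, between 200.02 and 259 CPM. For Me1, Elovl5 and Acsl3 the highest value was in 711.

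Tau was compared with PBS in males. In WT males 0 of 35 members passed the FDR, as did 0% of all genes, and 2 had an unadjusted p under 0.05 against 1.86% of genes. Those 2 were Lss, with a fold of -0.26 ± 0.0876 (SE), and Mvk, with a fold of -0.28 ± 0.0964 (SE). For both, every Tau library lay below every PBS library. The count was 1 without 791 or 772. Tau and PBS libraries did not overlap for 11 members (3 higher, 8 lower) against 12.2% of genes, and 23 of 35 folds lay below 0 (median -0.064, all genes -0.0085). In KO males 0 of 35 passed the FDR, as did 0% of genes, and 3 had an unadjusted p under 0.05 against 7.95%. They were Acaca (-0.26 ± 0.0742 (SE)), Fasn (-0.32 ± 0.109 (SE)) and Mvd (-0.46 ± 0.174 (SE)). The Tau groups of Acaca and Fasn lay wholly below the PBS groups, the 2 members without overlap against 9.01% of genes, whereas those of Mvd overlapped and its fold was -0.36 without 711 and -0.24 without 752. For Acaca and Fasn the same KO PBS libraries also lay wholly above WT PBS. The folds against KO Tau and against WT PBS share those libraries and are not separate results. Leaving out 712 raised the count under 0.05 in KO males to 9, against 9.52% of genes. Without 711, 8 of the 18 sterol enzymes and 9 of the 10 fatty acid genes lay below 0 in KO males, against 15 and 4 with it.

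**Figure D4:**
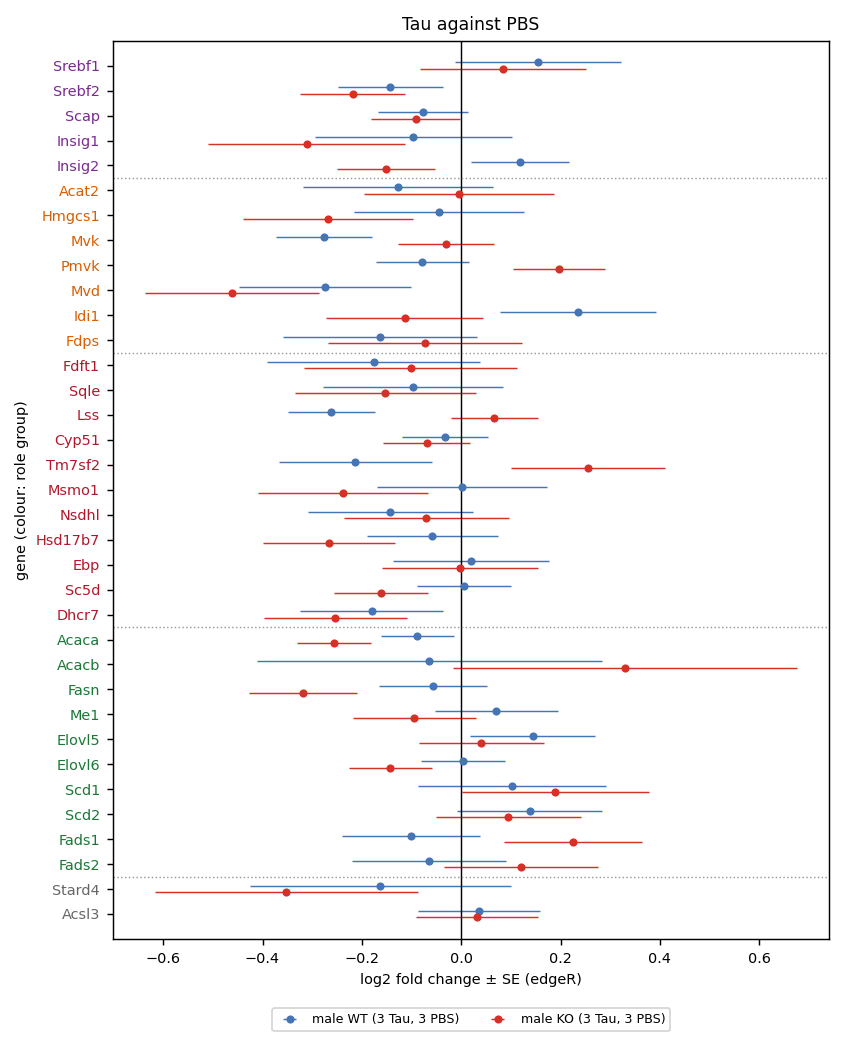
Log2 fold change of Tau against PBS with its SE from edgeR for each of the 35 genes, in WT males and in KO males (3 against 3 libraries in each); gene names are coloured by role. Acaca and Fasn lie left of 0 in KO males.

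Averaged over genotypes, 0 of 35 members passed the FDR for Tau against PBS (0% of genes), and 5 had an unadjusted p under 0.05 against 5.38% of genes. These were Acaca (-0.17 ± 0.0525 (SE)), Mvd (-0.37 ± 0.123 (SE)), Fasn (-0.19 ± 0.0768 (SE)), Srebf2 (-0.18 ± 0.0748 (SE)) and Mvk (-0.15 ± 0.0681 (SE)). Averaged over treatments, 0 of 35 passed the FDR for KO against WT in males against 0.00662% of genes, and 2 had an unadjusted p under 0.05, Cyp51 (-0.24 ± 0.0617 (SE)) and Acaca (0.12 ± 0.0525 (SE)), against 4.58%. With each library left out these counts ran from 2 (without 792, 793 or 771) to 6 for Tau against PBS, and from 1 to 7 (without 752 or 712) for KO against WT. The difference between genotypes in the response to Tau was tested as an interaction, in which 0 of 35 passed (0% of genes) and 1 had an unadjusted p under 0.05 against 4.18%. That member was Lss, at 0.33 ± 0.124 (SE). Its WT fold was -0.26 and its KO fold 0.07 on the log2 scale. Without 771 no member was under 0.05 in the interaction, against 2.63% of genes. Without 711 there were 7 members under 0.05 in the interaction (Mvk, Pmvk, Fdft1, Lss, Tm7sf2, Elovl5, Scd2) against 8.74% of genes, none past the FDR.

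Tau-injected KO males were also set against PBS-injected WT males, which differ in both genotype and treatment. Of the 35 members 0 passed the FDR against 0.00662% of genes, and 5 had an unadjusted p under 0.05 against 6.33%. All 5 were sterol enzymes below WT, namely Cyp51 (-0.29 ± 0.0873 (SE)), Mvd (-0.54 ± 0.174 (SE)), Dhcr7 (-0.40 ± 0.144 (SE)), Hsd17b7 (-0.36 ± 0.132 (SE)) and Sc5d (-0.22 ± 0.0948 (SE)). KO Tau libraries lay wholly below WT PBS libraries for 8 members and wholly above for 0, against 14.4% of genes in either direction. The members' median was -0.14 with 25 of 35 below 0, against -0.0032 for all genes. The fold of Dhcr7 was -0.23 without 711. Without 711 the median was -0.083 and 27 of 35 lay below 0. The number under 0.05 ran from 3 (without 793) to 13 (without 712, against 8.12% of genes) when each library was left out.

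With DESeq2 on only the 2 groups compared and without 711, which leaves 2 KO Tau libraries, many genes passed an adjusted p of 0.05 and no member did. For KO Tau against WT PBS the count was 0 of 35 members against 1029 of 14436 genes with an adjusted p (7.13%), and for KO Tau against WT Tau it was 0 of 35 against 1378 of 14823 (9.30%). In the first the smallest adjusted p among members belonged to Insig1 (0.0683), Mvd (0.0851) and Cyp51 (0.136). In the second it was that of Elovl5 (0.0574).

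Members of the pathway varied together between libraries of the same group. Over the 17 libraries, the deviations of log2 CPM from the group means had a median Pearson r of 0.45 over the 153 pairs of the 18 sterol enzymes, of which 129 were above 0. The median over all pairs of the 15594 genes tested was -0.0014. Among the 45 pairs of fatty acid genes the median r was 0.27, and between sterol enzymes and fatty acid genes it was -0.34 over 180 pairs, of which 45 were above 0. Without 711 the medians for sterol pairs, fatty acid pairs and pairs between them were 0.38, 0.14 and -0.19. Acat2 (median r of 0.77 with the other sterol enzymes, 0.61 without 711), Fdft1 (0.66, 0.60 without 711), Hmgcs1 (0.66 both ways) and, outside the enzymes, Stard4 (0.65, 0.53 without 711) were highest over the 17 libraries. Fads2 (-0.61, -0.43 without 711) and Fads1 (-0.58, -0.49 without 711) were lowest. Among the sterol enzymes Idi1 (-0.0041), Pmvk (0.092) and Lss (0.14) were the lowest over all libraries, and without 711 they were Ebp (-0.18, from 0.47), Pmvk (-0.035) and Tm7sf2 (0.11), so the order within the pathway rested in part on that library. These correlations describe 17 libraries that also share dissection and cell type makeup, and the part of either was not tested.

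Library 711 sat at an end of the male range for most of the pathway. It was the lowest of the 12 male libraries for 18 members, among them 12 sterol enzymes, Srebf2, Insig1, Insig2, Acaca, Elovl6 and Stard4. It was the highest for 7 members, namely Me1, Elovl5, Scd1, Scd2, Fads1, Fads2 and Acsl3. The female libraries had summed astrocyte marker levels of 7435 to 8217 CPM, near the 7067 CPM of 711, and for Me1, Scd1, Scd2, Fads1 and Acsl3 all 5 female libraries lay above the other 11 male libraries. For Srebf2 and Scap all 5 lay below them. The share of all genes that separate female from male libraries in this way is not given here, so these counts describe the members only. Sex and library set cannot be told apart here, and the part of the astrocyte markers in these levels was not tested. In 752 the highest male values of Srebf2, Insig1, Hmgcs1, Mvd, Msmo1 and Stard4 were found. Library 751 was the lowest male library for 8 members (Srebf1, Pmvk, Lss, Tm7sf2, Elovl5, Scd1, Scd2, Fads1). For the counts in 711, 752 and 751 the share of all genes at an end of the male range is not given here. Whether the pathway differs from other genes in these libraries was not tested.

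**Figure D5:**
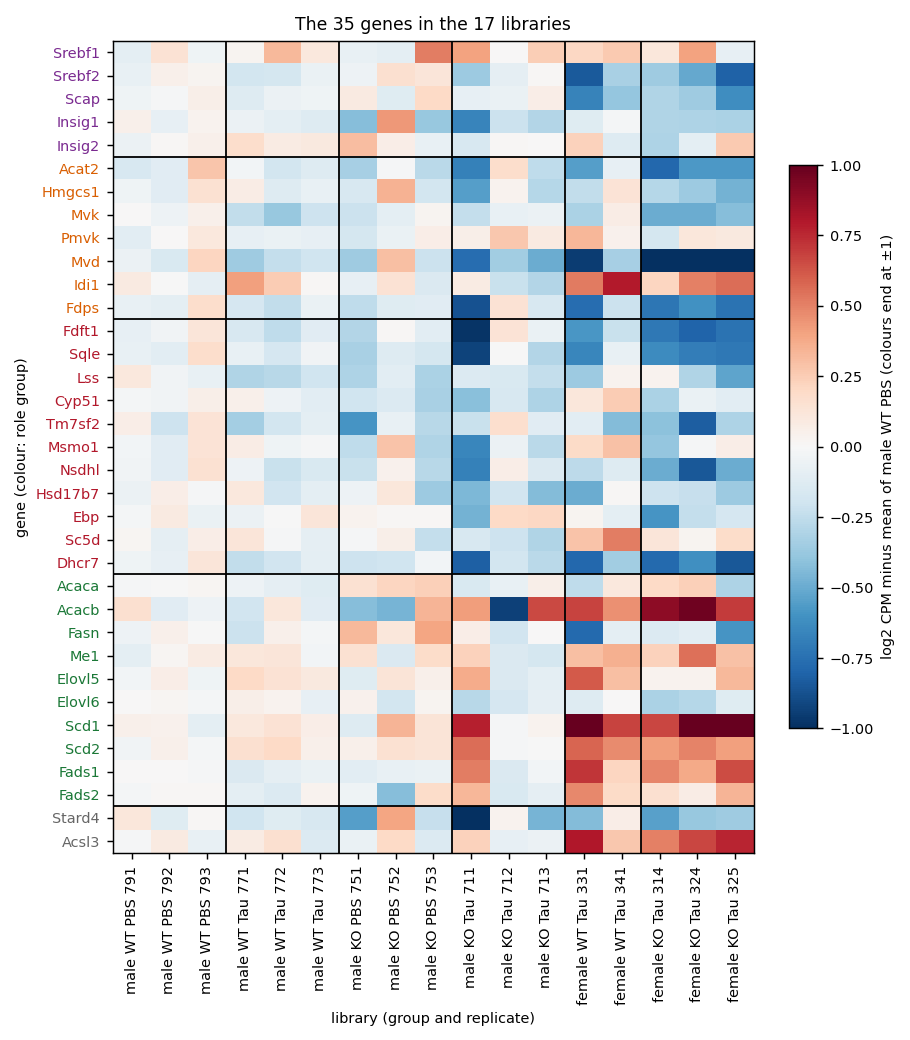
Log2 CPM of each of the 35 genes in the 17 libraries minus the mean of the 3 male WT PBS libraries, with genes grouped by role and libraries by group; red is higher and blue lower, and colours end at 1 log2 unit either way. In male KO Tau 711 most sterol enzymes are blue and Scd1, Scd2, Fads1 and Fads2 are red.

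Of 31 other genes of the pathway and of cholesterol transport, 0 passed the FDR in any of these comparisons. Lrp1, a receptor for apolipoprotein E, was at 467 ± 24.0 CPM (SD, n = 3) in WT PBS and 594 ± 55.1 CPM (SD, n = 3) in KO PBS males (0.40 ± 0.129 (SE)). Elovl1, an elongase of very long chains, was 15.3 ± 0.683 CPM (SD, n = 2) in female WT and 10.1 ± 0.871 CPM (SD, n = 3) in female KO (-0.55 ± 0.151 (SE)). Of the 31 folds for KO against WT, 15 lay below 0 in PBS-injected males (48.4%, all genes 47.5%), 15 in Tau-injected males (48.4%, all genes 48.2%) and 21 in females (67.7%, all genes 52.0%), where the 12 other synthesis enzymes all lay below 0 (median -0.23). The counts at an unadjusted p under 0.05 ran from 0 of 31 (Tau against PBS in WT males, 1.86% of genes, and the interaction, 4.18%) to 6 of 31 (19.4%) in the average over 3 strata, against 4.18% of genes.

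Some levels carry a limit of counting. Acat2 shares 1477 aligned bases at 97.7% identity with Acat3, and Scd2 shares 623 at 95.5% with Scd1. Reads that match both genes of such a pair may be left uncounted or counted for the wrong gene. In all, 11 members had a near copy. Processed pseudogenes that are not in the count table match Acaca over 6118 bases (99.2% identity), Me1 over 1638 (98.5%), Fdft1 over 1249 (97.4%) and Idi1 over 684 (100%). The effect of near copies on these levels was not tested. Fdps overlaps Gm43738 on its own strand over 26.7% of its exon length. Exons of 9 members overlap a gene on the opposite strand, Fdft1 most (18.3% of its exon length, Ctsb) and Cyp51 over 3.76% (Akap9), and although counting was set to the reverse strand, the library kit named (NEBNext Ultra II RNA) is not described as directional in the methods. Without strand, the reads of such a pair cannot be told apart.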

How the data were processed

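Raw read counts per gene symbol were deposited in 1 table of 24498 symbols and 17 libraries. Per the labels and the methods, the authors aligned reads to GRCm38 (mm10) with STAR 2.5.2 and counted them over exons with HTSeq 0.9.1 in reverse-stranded mode, with SAMtools 1.1 also named. The labels call the replicates biological. No column was left out, and no comparison columns of the authors were present. From the deposited counts, edgeR 4.0.16 in R 4.3.3 (quasi-likelihood F-test, TMM factors, filterByExpr with minimum count 10 and minimum total 15, Benjamini-Hochberg FDR 0.05 over all genes) was fitted to the 12 male libraries for male comparisons and to the 11 Tau libraries for the female one. The study tested males with the Wald test of DESeq2 and 2 KO Tau libraries, without naming the library left out, and leaving out 711 in that test was an alternative here. DESeq2 1.42.0, RLE factors, no filter, limma 3.58.1 (voom with quality weights), other sets of libraries and each replicate left out were the alternatives. The fit was tested on simulated data.

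The members and gene lists were chosen with earlier results of these data known. Any member could be named. Values in every library were given for 16 chosen members and for the 3 with the smallest unadjusted p in each comparison, and related genes were named by the same limit of 3. Some related genes that this rule names are not reported here. Gene positions and exon lengths came from GENCODE (GRCm38), near copies from BLAST 2.17.0 of the longest transcript (at least 95% identity over 100 bases), and promoters from RefSeq. A count of 0 allows up to 3 counts, or 0.134 to 0.212 CPM by library, which covers counting error only. Figures were drawn with matplotlib 3.10.9.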

Additional observations from a re-analysis of the deposited data

How the results depend on the processing

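No paired analysis was possible because the library numbers in the labels are not shared between groups. The count of members past the FDR was 0 in all 10 comparisons and stayed at 0 under each of the 194 refits. In the simulated data 0% of genes changed by 0.25 log2 units passed, and 5.97% of those changed by 0.5. A count of 0 therefore cannot show that members with folds of that size did not differ. The folds of the 30 member results followed, being the 3 members with the smallest p in each comparison, kept their sign in all 582 refits, none of which passed the FDR. These members were picked by p from the same libraries that were refitted. A kept sign was therefore likely from the choice itself and is a description only. The members' median log2 fold change kept its sign in 193 of 194 refits and moved by less than the spread of the members' mean level between replicates (SD 0.0591) in 187. That spread is near the size of several reported medians, such as -0.055 for the interaction and -0.064 for Tau against PBS in WT males. A smaller move can thus still take a median close to 0. With each replicate left out the members' median ranged from -0.10 to -0.0011 for KO against WT in PBS-injected males, reported as -0.070. There the value nearest 0 came without 751 and that without 753 was -0.0063. It ranged from -0.14 to -0.029 for Tau against PBS in KO males (without 752, -0.029) and from -0.24 to -0.12 for KO against WT in females (without 341, -0.12). For the interaction it ranged from -0.12 (without 712) to 0.011 (without 711), the one change of sign. DESeq2 on only the 2 groups without 711 gave -0.080 for KO Tau against WT PBS, in place of -0.14. The causes were not tested. The contrast averaged over 3 strata, and the refits of it, were chosen after seeing the data.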
